A study of Mus musculus and Homo sapiens with 22 samples.

Results

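The genes described here encode proteins of pre-mRNA splicing: the heterogeneous nuclear ribonucleoproteins (hnRNPs), the serine/arginine-rich splicing factors (SR proteins), and protein subunits of the small nuclear ribonucleoprotein particles (snRNPs) that build the spliceosome. Members were the protein-coding genes of the RefSeq annotation of GRCm38.p6, the assembly behind mm10, whose symbols begin with Hnrnp, Srsf, Sf3a, Sf3b, Snrnp or Snrp. There were 60 of them among 21900 protein-coding genes. The measurement was irCLIP, in which ultraviolet light crosslinks a protein to the RNA it touches, the protein is immunoprecipitated and the attached RNA is sequenced. Lin28A was precipitated with an anti-Lin28A antibody from V6.5 mouse embryonic stem cells that were either Mettl3 wild-type (WT) or Mettl3 knockout (KO), both grown on gelatin in medium with leukaemia inhibitory factor and with no other treatment. Mettl3 is the catalytic subunit of the complex that writes N6-methyladenosine on mRNA, and the pair of lists asks where Lin28A sat on RNA with and without that enzyme. Each genotype had 1 site list, and the labels do not say whether the KO line was 1 clone.

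Lin28A is an RNA-binding protein of early embryos and stem cells. It blocks maturation of the let-7 microRNAs through a cold-shock domain and a pair of zinc knuckles, the latter of which recognise GGAG, and it also binds many mRNAs. HnRNPs coat nascent transcripts and often repress exons, and SR proteins bind exonic enhancers and recruit the spliceosome. The SF3A and SF3B complexes belong to the U2 snRNP, which recognises the branch point. Snrnp genes encode proteins particular to one kind of snRNP, and Snrp genes encode mainly the Sm proteins that form the shared ring on spliceosomal RNAs. Several SR and hnRNP genes are known to control their own mRNA level through alternative exons that lead to decay of the transcript.

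A site was a genomic interval with a strand and a score, and the smallest interval was 50 nt. The score is the authors' own value, in a unit the labels do not state, and it serves only to describe and rank sites within a list. Scores ran from 13 to 15435 in the 10990 WT sites (median 20) and from 12 to 11860 in the 11285 KO sites (median 19). Read depth is not given with the lists. With 1 list per genotype there is no replicate spread, so no test between genotypes was run, and every interval printed is an exact (Clopper-Pearson) 95% interval that covers counting error alone. Neighbouring sites of 1 gene come from the same RNA, which makes these intervals too narrow. Of 12 embryonic stem cell markers, all 9 with a known strand held sites. None of the 3 fibroblast, 2 primitive endoderm and 3 neural markers with a known strand did (7, 6 and 3 listed). No site of the WT or KO list lay in Mettl3. A list of binding sites carries no RNA level, and the Mettl3 genotype could not be verified from it.

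The members held 223 WT sites and 227 KO sites, which was 2.03% and 2.01% of the lists. In WT cells 41 of the 60 members held at least 1 site, in KO cells 42 did, and 38 held sites in both. The KO share of their sites was 50.4% (45.7 to 55.2). The strand was known for 53 members. The other 7 (Hnrnpul2, Hnrnpll, Sf3b4, Sf3b5, Snrnp40, Snrpb and Snrpd1) were counted on either strand, and within each of those that held sites all sites lay on 1 strand.

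Binding was common among these genes. Of the 53 members with a strand, 37 held a WT site (69.8%, 55.7 to 81.7) and 36 a KO site (67.9%, 53.7 to 80.1), and 39 held a site in either list (73.6%). Among all 17492 protein-coding genes with a known strand the same shares were 15.1% in WT, 16.1% in KO and 18.2% in either list. At least 10 sites over both lists were found in 17 of the 53 (32.1%), against 1.79% of all. The median length of the members was 10.7 kb, against 16.9 kb for all genes with a strand and 30.3 kb for those with a site. RNA level was not measured in these lists, and the shares were adjusted neither for it nor for gene length.

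**Figure D1:**
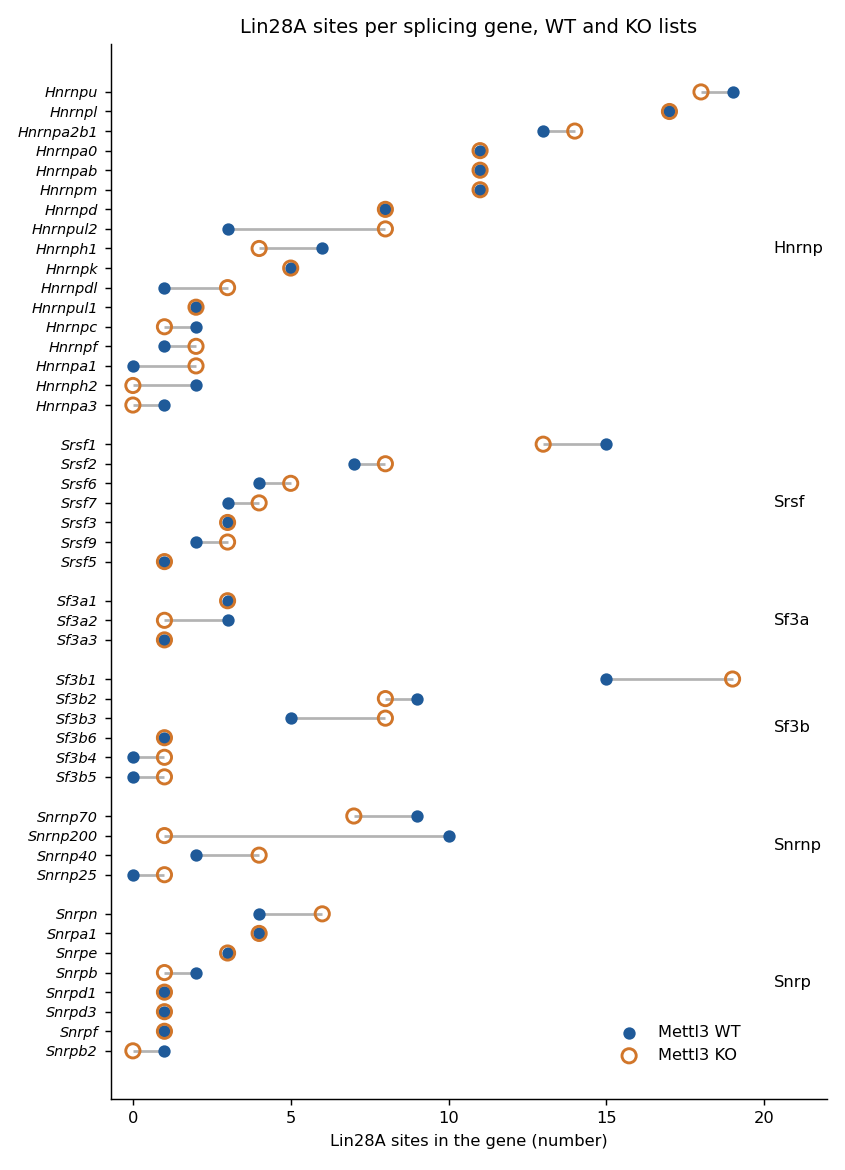
Number of Lin28A sites (x axis) in each of the 45 members with a site (y axis, grouped by subfamily), with filled points for the Mettl3 WT list and open circles for the KO list, joined by a grey line. For 32 genes, some with only 1 site over both lists, the lists differed by at most 1 site. Snrnp200 (10 and 1), Hnrnpul2 (3 and 8) and Sf3b1 (15 and 19) had the longest lines.

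The hnRNP genes carried about as many sites as all other members together: 113 in WT and 117 in KO, over 17 of 21 genes. Hnrnpu, which encodes the nuclear scaffold protein hnRNP U (chromosome 1, 178321108 to 178338891), had the most over both lists, with 19 WT and 18 KO sites, and ranked 22nd among the 17492 protein-coding genes with a known strand. Hnrnpl, a regulator of exons through CA-rich elements (chromosome 7, 28808546 to 28822268), had 17 in each list. Hnrnpa2b1, an RNA transport and splicing protein (chromosome 6, 51460434 to 51470048), had 13 and 14. Hnrnpa0, a small relative of the A/B proteins (chromosome 13, 58125879 to 58128556), Hnrnpab (chromosome 11, 51600100 to 51606881) and Hnrnpm (chromosome 17, 33646233 to 33685458) had 11 in each list. In these 6 genes the lists differed by at most 1 site.

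Site number varied widely among the hnRNP genes. Hnrnpa1, the best-known splicing repressor of the A/B group, had no WT site and 2 KO sites, both at the lowest KO score of 12. Hnrnpa3 had 1 WT site (score 18) and none in KO. Hnrnpc, which binds uridine tracts, had 2 and 1. Hnrnph2, encoded on the X chromosome, had 2 WT sites (scores 14 and 18) and none in KO, whereas its relative Hnrnph1 had 6 and 4. Hnrnph3, Hnrnpr, Hnrnpll and Hnrnpa1l2-ps2 had none in either list. The remaining hnRNP genes were Hnrnpd, which encodes the AU-rich element protein AUF1 (8 and 8), Hnrnpk, a poly(C)-binding protein (5 and 5), Hnrnpul2 (3 and 8), Hnrnpul1 (2 and 2), Hnrnpdl (1 and 3) and Hnrnpf (1 and 2).

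Hnrnpa0 was the most densely occupied gene. Its 22 sites over both lists lay in 2.68 kb, or 8.22 per kb, the highest density of the 313 protein-coding genes with at least 10 sites and a known strand. Sites covered 750 nt of it in WT (28.0%) and 950 nt in KO (35.5%). The gene is known to lack introns, whereas the bounds of most other members include them. Next among the members came Srsf2 (3.97 per kb, 16th of the 313), Srsf1 (3.86, 17th), Hnrnpab (3.24, 24th) and Hnrnpa2b1 (2.81, 31st). Snrpn came last, at 0.0214 per kb over bounds of 468 kb.

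The SR protein genes split into 7 with sites and 4 without, and these were the same genes in both lists. They held 35 WT and 37 KO sites. Srsf1, the founding SR protein (chromosome 11, 88046499 to 88053757), had 15 and 13, and Srsf2, also called SC35 (chromosome 11, 116849897 to 116853675), had 7 and 8. Srsf6 had 4 and 5, Srsf7 had 3 and 4, Srsf3 had 3 in each, Srsf9 had 2 and 3, and Srsf5 had 1 in each. No site lay within Srsf4, Srsf10, Srsf11 or Srsf12. No SR gene differed by more than 2 sites between the lists.

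Srsf3 held the highest-scoring site of all members although it had few. The site (chromosome 17, 29041851 to 29041900) scored 275 in WT and 219 in KO, which placed it 148th in the WT list and 188th in the KO list. Its other sites within bounds scored 14 and 26 in WT and 19 and 24.5 in KO. All of them lay between 0.85 and 0.91 of the way from the start of the gene to its end. In Srsf1 the strongest site, 200 nt wide (88050951 to 88051150), scored 130 in WT and 145.5 in KO, and the other WT sites lay at 58.5 or below.

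Each of the 9 members named Sf3a or Sf3b, which encode subunits of the U2 snRNP complexes SF3A and SF3B, held at least 1 site within its bounds. The only Sf3b4 site also lay over a small nucleolar RNA gene. Sf3b1, the largest SF3B subunit, which contacts the branch point (chromosome 1, 54985169 to 55027501), had 15 WT and 19 KO sites. Its strongest site (55019251 to 55019400) scored 154.7 in WT and 160.0 in KO. Sf3b2 had 9 and 8, and Sf3b3, which lies on chromosome 8 (110810491 to 110846806), had 5 and 8. Sf3b6, the subunit at the branch-point adenosine, had 1 site in each list. Sf3b4 and Sf3b5 had 1 KO site each and none in WT.

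Of the SF3A genes, Sf3a1 had 3 sites in each list, at the same 3 positions, and Sf3a2 had 3 and 1. Sf3a3 had a single site, at 124723651 to 124723700 on chromosome 4, with identical bounds in both lists. It scored 149 in WT, where it ranked 331st, and 51 in KO, where it ranked 1291st. It was the third highest member site in WT, but was not among the 10 highest in KO. The lists share no common scale of score, so these values are only set side by side.

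Genes for proteins of single snRNPs had the lowest shares of sites in common between the lists, on few sites. In WT, 9 of their 14 sites without a counterpart lay in Snrnp200. The 7 Snrnp genes held 21 WT and 13 KO sites. Snrnp200, the helicase that unwinds the U4/U6 duplex (chromosome 2, 127208386 to 127240453), had 10 WT sites and 1 KO site. The WT scores ran from 13 to 22 with a median of 13.25, and 7 of the 10 were at 14 or below, near the lowest score in the list. The single KO site (score 16) overlapped the WT site with a score of 21, and the other 9 WT sites had no counterpart. Snrnp70, the U1 protein U1-70K (chromosome 7, 45376454 to 45395742), had 9 and 7, of which 5 and 3 had no counterpart. Snrnp40 had 2 and 4, and Snrnp25 had 1 KO site (score 16). Snrnp27, Snrnp35 and Snrnp48 had none.

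The Snrp genes held 17 sites in each list over 8 of 12 genes. Snrpa1, the U2 protein A′, had 4 in each list, with a strong site at 66069451 to 66069500 on chromosome 7 that scored 111 in WT and 125 in KO. Snrpe had 3 in each, with scores of 17, 26 and 38 in WT and 12, 16 and 40 in KO. Snrpb had 2 and 1, Snrpd1, Snrpd3 and Snrpf had 1 in each, and Snrpb2 had 1 WT site. Snrpf had no shared site: its WT site lay at the start of the gene and its KO site near the end, both with a score of 14. Snrpa, Snrpc, Snrpd2 and Snrpg had none within bounds.

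Snrpn, an imprinted gene for the Sm protein SmN of brain and stem cells, had 4 WT and 6 KO sites. The site at 59985851 to 59985950 on chromosome 7 scored 81 in WT (741st) and 162.5 in KO (276th), and the one at 59987501 to 59987550 scored 56 and 90. The third shared site, at 59999301 to 59999350, scored 17 and 40. These scores have no common scale and no replicate. All Snrpn sites also lay within the long noncoding host gene Snhg14 on the same strand, and 3 of the WT and all 6 KO sites within Snurf, which shares transcripts with Snrpn, so these genes cannot be told apart here.

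In 32 of the members the lists differed by at most 1 site. Some of these, such as Hnrnpa3, held only 1 site over both lists, where no larger difference was possible. Among the 45 members with a site, 16 had more KO sites, 12 had more WT sites, and 17 had equal numbers. These splits were not counted over all protein-coding genes. Of the 17 members with a strand and at least 10 sites, 2 had at least 1.5 times as many KO as WT sites (Sf3b3 with 5 and 8, Snrpn with 4 and 6), where 11.8% of the 313 protein-coding genes of that size did. Neither of these counts belongs to the member alone: without 2 KO sites over small nucleolar RNA genes Sf3b3 had 5 and 6 and no longer reached the ratio, and all Snrpn sites lay within Snhg14 as well. Another 2 had at least 1.5 times as many WT sites (Snrnp200 with 10 and 1, Hnrnph1 with 6 and 4), where 15.7% of the 313 did. These counts are near the background. Hnrnpul2, an hnRNP U relative without a known strand (chromosome 19, 8819401 to 8834143), had 3 WT and 8 KO sites. Its 3 WT sites each had a counterpart, and the 5 further KO sites scored between 12 and 15.

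The KO share of the Snrnp200 sites was 9.09% (0.230 to 41.3), beside 50.6% over all protein-coding genes with a strand, and this gene was singled out for its difference. At a ratio of 2 the members left were Hnrnpul2 and Snrnp200. With sites at or above the median score of their own list, the minimum of 10 sites applied to those sites alone. Snrnp200 then had 3 WT and 0 KO sites and Hnrnpul2 had 0 and 1, so both fell below the minimum. Their ratios were therefore not judged at this setting. Hnrnpa2b1 passed, with 5 WT and 11 KO sites. Over all its sites Hnrnpa2b1 had 13 and 14, and all 13 WT sites had a KO counterpart. The median scores that set the cut were 20 in WT and 19 in KO, on lists without a common scale. Neither setting was counted over all protein-coding genes.

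Most member sites occupied the same place in both genotypes. Of the WT sites 78.5% (72.5 to 83.7; 175 of 223) overlapped a KO site by at least 1 nt on the same strand, and 76.2% (70.1 to 81.6; 173 of 227) of the KO sites had a WT counterpart by the same rule. Among members with a strand the shares were 78.1% and 78.7%, beside 73.1% (72.1 to 74.2) and 71.4% (70.3 to 72.4) over all protein-coding genes with a strand. In 67 related splicing genes with other names they were 72.2% (65.1 to 78.6) and 67.2% (60.1 to 73.8). Member sites were also wider, as given below, and a wider site meets an overlap of 1 nt more easily. The shares were not adjusted for width. In the subfamilies with the most sites, the shares were 85.7% and 81.1% (Srsf), 84.96% and 80.3% (Hnrnp), and 83.3% and 65.8% (Sf3b). They were lowest in the Snrnp genes, with 33.3% (14.6 to 57.0) of 21 WT sites and 53.8% (25.1 to 80.8) of 13 KO sites. Both intervals overlapped those of the Snrp genes (44.0 to 89.7 in each list). Snrnp200 alone held 9 of the 14 WT Snrnp sites without a counterpart. In Hnrnpa2b1 and Hnrnpab, among others, all WT sites had a counterpart. All sites of both lists did in Hnrnpk, Sf3a1, Srsf3 and Snrpe. The same held for Sf3a3, Sf3b6, Srsf5, Snrpd1 and Snrpd3, with 1 site in each list.

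Sites without a counterpart had low scores. In the members their scores ran from 13 to 22 in WT (median 15, n = 48) and from 12 to 32 in KO (median 13, n = 54), whereas shared sites had medians of 23 and 21. All 56 WT member sites with a score of at least 30 were shared, and so were 47 of 48 KO sites. The exception was a KO site in Hnrnpd at 99967201 to 99967250 on chromosome 5, with a score of 32. Below a score of 15, 48.9% (33.7 to 64.2) of 45 WT sites and 34.5% (22.5 to 48.1) of 58 KO sites were shared. Over all protein-coding genes with a strand sharing also increased with score, from 42.1% to 99.4% in WT and from 43.0% to 99.7% in KO. Of the sites without a counterpart, 16 in WT and 17 in KO had a site of the other list within 100 nt.

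**Figure D2:**
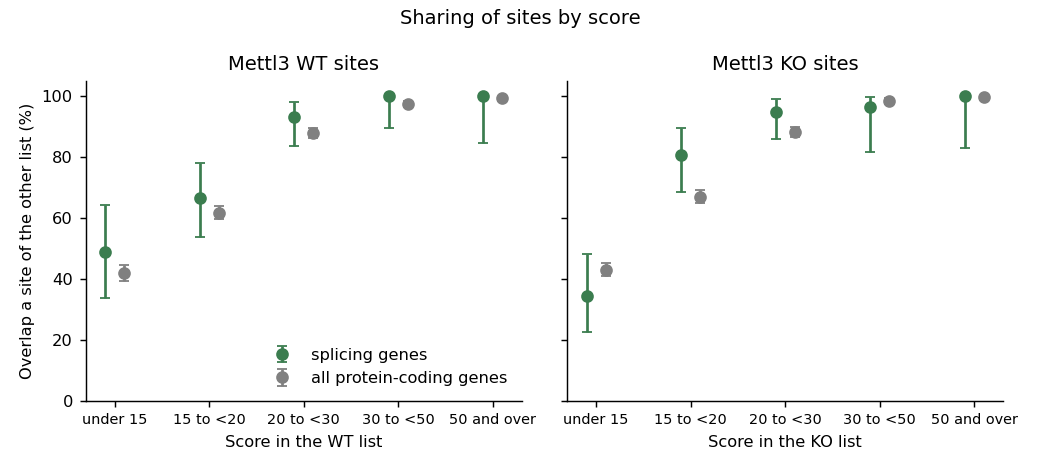
Percent of sites (y axis) that overlap a site of the other list by at least 1 nt, for 5 classes of score (x axis), with member sites in green, sites of all protein-coding genes with a strand in grey, and exact 95% intervals as bars. Below 15 the member values were 48.9% in WT and 34.5% in KO, and at 50 and over all 22 WT and 20 KO member sites were shared.

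The strongest sites were largely the same. Of the 10 highest-scoring member sites in WT, 8 overlapped one of the 10 highest in KO. The sites of Srsf3, Sf3b1, Srsf1, Snrpa1, Hnrnpd and Snrpn and a pair of sites in Hnrnpab made up this group. The Hnrnpab pair was a 50-nt site at 0.89 of the gene and a 500-nt site (51601001 to 51601500) at 0.83. The 50-nt site scored 116 in WT and 126 in KO, and the 500-nt site 114.2 and 111.7. The Hnrnpd site (99961001 to 99961050) scored 98 and 103. Within genes, the strongest WT and KO sites overlapped in 13 of the 17 members with a strand and at least 10 sites (76.5%), where they did in 70.9% of the 313 genes. They differed in Hnrnpu, Sf3b2, Srsf2 and Snrnp200.

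Scores of member sites were close to those of other genes. For members with a strand the median was 20 in WT and 19.5 in KO, beside 19 and 18 over all protein-coding genes with a strand. Member sites were wider: 32.1% of WT and 33.2% of KO sites in members with a strand spanned more than 50 nt, beside 15.5% and 15.0% over all. Over all 60 members, the wide sites were mainly in the Hnrnp genes (38.9% and 38.5% of their sites) and the Srsf genes (14 of 35 and 16 of 37). The shares were 16.7% and 18.4% in Sf3b, 19.0% and 0 in Snrnp, 17.6% and 23.5% in Snrp, and 0 in Sf3a. In related splicing genes with other names they were 19.4% and 14.1%. The widest was a 600-nt KO site in Hnrnpu, which overlapped 3 separate WT sites. Site number and covered length therefore differed in direction: Hnrnpu had 1 site fewer in KO, but its KO sites covered 2650 nt, against 2300 nt in WT. Over all members, sites covered 17100 nt in WT and 17700 nt in KO.

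**Figure D3:**
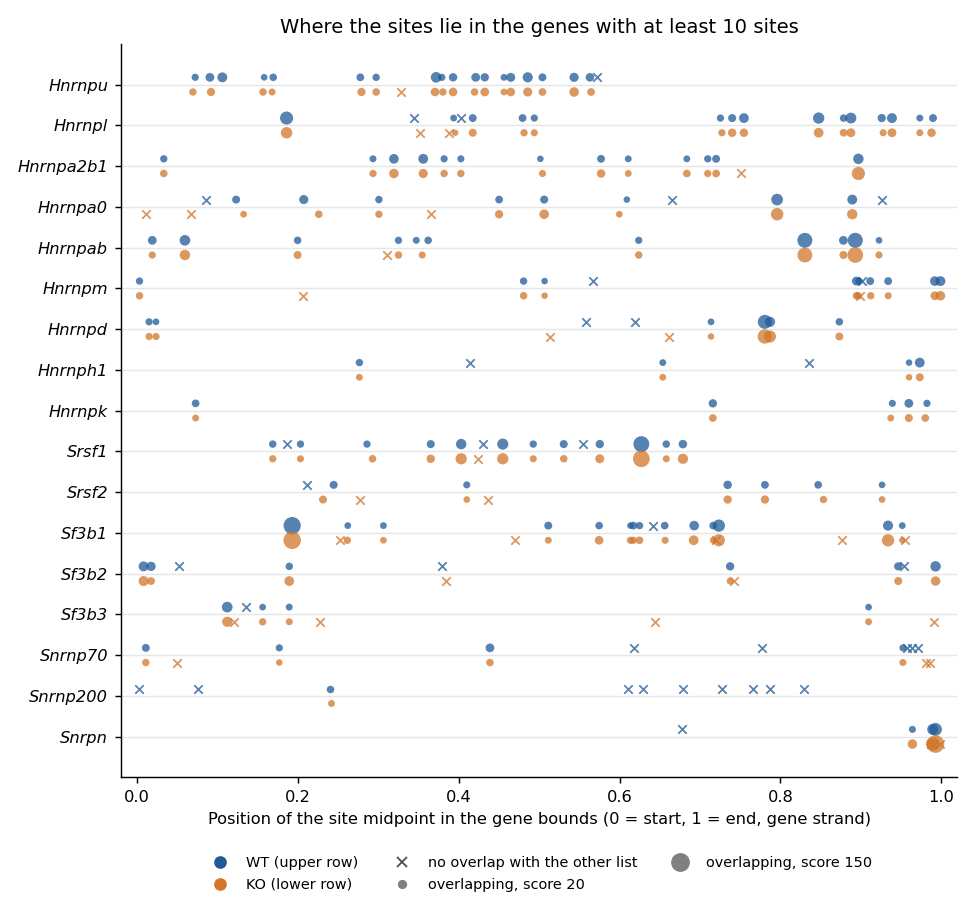
Position of each site (x axis, from 0 at the start of the gene to 1 at its end) in the 17 members with a known strand and at least 10 sites (y axis), WT above and KO below the line of each gene. Circles are sites that overlap the other list, with area growing with the score, and crosses are sites that do not. Hnrnpu sites stopped at 0.57 of the gene and Srsf1 sites at 0.68 in both lists, and in Snrnp200 the WT row holds 9 crosses.

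Along the gene, fewer member sites lay toward the end than over all protein-coding genes. In WT 17.7% (12.8 to 23.4) of the 215 sites in members with a strand lay in the last 10% of the gene bounds, beside 29.5% over all protein-coding genes. In KO the values were 18.96% (13.9 to 24.9) and 31.1%. The related splicing genes lay between, with 22.8% (16.9 to 29.6) in WT and 27.1% (20.9 to 33.95) in KO, and their intervals overlapped those of the members. The first 10% held 11.2% and 9.48% of member sites, beside 10.2% and 9.18%. The genes differ in length: those with a site had a median of 10.7 kb among the members and 30.3 kb over all. The share within 1000 nt of the gene end is therefore given as well. It was 15.3% of WT and 17.5% of KO member sites, beside 18.4% and 20.1% over all. That gap is smaller, and no interval was computed for it. The tables used here give no exons, so exons, introns and untranslated regions were not separated.

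**Figure D4:**
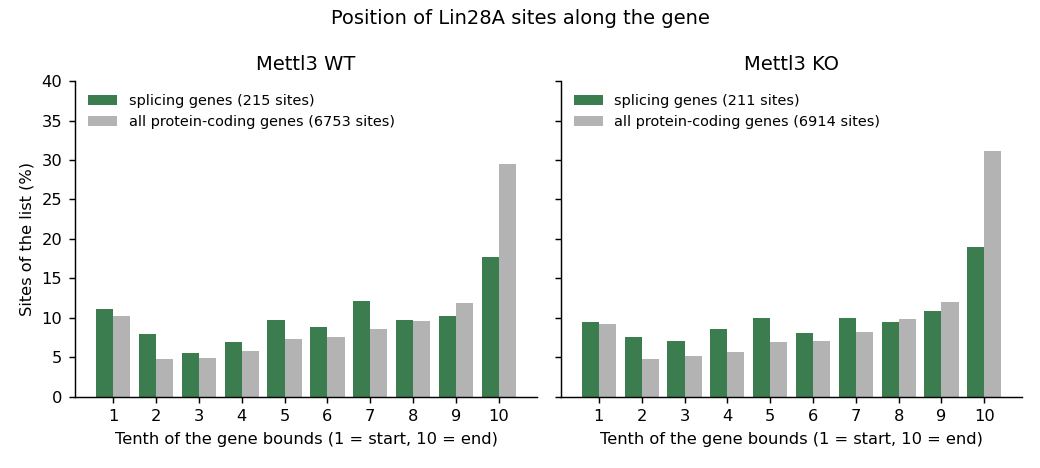
Percent of sites (y axis) in each 10% of the gene bounds (x axis), for members with a strand (green) and all protein-coding genes with a strand (grey), WT left and KO right. The last 10% held 17.7% of WT and 18.96% of KO member sites, beside 29.5% and 31.1% over all genes.

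The share in the last 10% varied among the subfamilies, some with few sites, and no interval was computed for them. Counting genes with a strand, it was 16.4% in WT and 14.7% in KO for Hnrnp, and 23.3% and 22.2% for Sf3b. For Snrnp it was 4 of 19 and 4 of 9 sites, and for Sf3a 1 of 7 and 1 of 5. In the Srsf genes 2 of 35 WT and 2 of 37 KO sites lay in the last 10%, and in the Snrp genes 6 of 14 and 9 of 15, counting genes with a strand. The 3 shared WT sites and all 6 KO sites of Snrpn were among these Snrp sites. Its bounds span 468 kb, so its last 10% is far longer than that of the other Snrp genes. In Hnrnpu the sites ran from 0.07 to 0.57 of the gene in WT and to 0.56 in KO, and none lay beyond. In Srsf1 they ran from 0.17 to 0.68 in both lists. Hnrnpm had 7 of its 11 sites beyond 0.89 in each list, and Hnrnpl and Hnrnpab had sites from near 0.19 and 0.02 to 0.99 and 0.92.

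Some sites lay at the start of a gene, where the RefSeq promoter table gives the sequence to 50 nt past the start. That window was available for 53 members. The stretches below are shown because they are the member sites of which at least 30 bases can be read. They are GRCm38.p6 sequence on the gene's strand, with the GGAG motif in capitals where present.
Hnrnpa0, KO site, score 12, chr13:58128507-58128536, minus strand: taggGGAGcGGAGgtggcggccgcggcggc
Sf3a2, WT site, score 14, chr10:80798755-80798784, plus strand: aGGAGctgcacagtttgtcggtggcggctg
Snrpf, WT site, score 14, chr10:93589609-93589638, minus strand: cgggtcgcttggttgtagcggcagccgctc
Snrpg, WT and KO site, scores 18 and 14, chr6:86371521-86371550, plus strand: tgcgcgcgtttctgagcctgctcactcctt
Srsf3, WT site, score 17, chr17:29032671-29032700, plus strand: ccgccatttcgtgacgccgcgagaccgaga
GGAG occurred 2 times in the Hnrnpa0 stretch and 1 time in the Sf3a2 stretch, and was not among the letters of the others. In the bases from 21 to 50 past the start of all 21263 protein-coding start windows, 24.9% held GGAG on the gene's strand and 18.7% on the other strand (as CTCC). In the 70 start windows of the members the values were 31.4% and 12.9%. These shares match the Hnrnpa0, Sf3a2 and Snrpf stretches, which cover the same bases, but not the Snrpg and Srsf3 stretches, which lie closer to or across the start. The Snrpg and Srsf3 sites reached past the gene start and were therefore not counted among the sites within bounds. Apart from the shared Snrpg site, each of these start sites was in 1 list only.

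Related splicing genes with other names were placed in the same way. Of 82 such genes listed, 67 had a known strand, and 52 of these (77.6%) held a site in either list, close to the 73.6% of the members. They held 180 WT and 192 KO sites, and 11 of them (16.4%) had at least 10 sites. Srrm2, a scaffold of nuclear speckles, had 19 in each list, Prpf8, the core of the U5 snRNP, 19 and 17, and Sfpq, a paraspeckle protein, 12 in each. The helicase genes Ddx17 and Ddx5 had 13 and 10 in WT and 12 each in KO. Of the 11, only Syncrip (4 and 7) had a ratio of at least 1.5.

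Some member sites lay over other genes. In Sf3b3 a KO site of 100 nt (score 18.5) overlapped the small nucleolar RNA gene Snord111 and another (score 12) a second such gene, and the only Sf3b4 site (KO, score 19) overlapped Gm22027, also a small nucleolar RNA gene. Sites of the host RNA and of the small RNA cannot be told apart there. Sites in Hnrnpab, Srsf2, Hnrnpk and Snrpf that lay over another protein-coding gene were on the strand opposite to it.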

How the data were processed

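Lin28A irCLIP site lists of Mettl3 WT and KO V6.5 cells were analysed, 1 per genotype. Each deposited list gives intervals on a 50-nt grid, each with its strand, the authors' score and their p-value. The deposited score is a whole number for every 50-nt site and can have decimals for wider ones, and the deposited p-value was at most 1.06e-05. The submitters' processing notes name Bowtie2, UMI-tools and the build mm10, without roles. No source used here states the site caller, its control, its threshold or the read depth. The anti-GFP control samples and icSHAPE files were not analysed here.

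Sites were counted in a gene when they lay wholly within its RefSeq GRCm38.p6 bounds, on its strand. The strand came from the RefSeq promoter table, which covers 17492 of 21900 protein-coding genes and 53 of 60 members. Python 3.11.15, pandas 2.3.3 and scipy 1.17.1 were used, and placement and sharing were tested on simulated sites. Genes named were those with at least 10 sites over both lists, the 3 leading genes of each subfamily, those with the highest-scoring sites, those past the 1.5 ratio, and those with sites in no list or 1 list. Others were chosen after their values were seen. Members and lists were chosen with earlier results of these data known.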

Additional observations from a re-analysis of the deposited data

Results flagged for a closer look

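Some signal lay on the strand opposite to a member, outside the counts given above. In Snrnp200 a site at 127216251 to 127216300 on the minus strand of chromosome 2 had a score of 39 in WT and 32 in KO, above every site on the strand of Snrnp200 itself (13 to 22 in WT, 16 in KO). No other gene of the RefSeq table lay there. Hnrnpf had a minus-strand KO site with a score of 14 and no counterpart in WT. These were the only opposite-strand sites: 1 in WT and 2 in KO, beside 215 and 211 on the strand of the members. They were singled out because they lie outside the main measurement, and no control list was analysed here.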

How the results depend on the processing

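No paired analysis was possible because each genotype had 1 list, and no replicate could be left out. Of 59 alternatives for the main values, 45 stayed within the counting interval or within 1.5 times the count. Member sites numbered 115 in WT and 124 in KO when only sites at or above the median score of their list were used, by construction. Shared sites then made up 96.5% of WT and 94.4% of KO sites. The shared percent was 59.6 in WT and 58.6 in KO when bounds had to be identical, and 85.7 and 83.7 when a site of the other list within 100 nt sufficed. With at least 3 sites, 25 members were bound in WT and 26 in KO. Over all 60 members, those with more KO sites at the 1.5 ratio numbered 3 with Hnrnpul2 included, beside 2 among members with a strand. At a ratio of 2 there was 1, and with sites at or above the median score there was 1. Members with more WT sites numbered 2, 1 and 0 in the same order. The median-score setting asked for at least 10 such sites, a minimum that neither Snrnp200 nor Hnrnpul2 reached. For the ratio of 2 and the median score, no share over all genes was counted. The KO share of member sites and the member median score relative to that of all genes did not move beyond their intervals under the alternatives run for them. Neither did the percent of member sites in the last 10% of the gene, but this check did not follow the value over all genes. Within 1000 nt of the gene end lay 15.3% of WT and 17.5% of KO member sites, beside 18.4% and 20.1% over all genes. Restricting the counts to the 53 members with a strand was chosen after seeing the data. Of 72 alternatives for single subfamilies, 13 moved by over 1.5 times: 12 with sites at or above the median score and the Snrp KO count, which was 10 without sites over another gene.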
